A study of Mus musculus with 9 samples.

Results

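Matrix metalloproteinases (MMPs) and their tissue inhibitors (TIMPs) were followed in M-MDSCs sorted from mouse tumours, the monocytic kind of myeloid-derived suppressor cell, which resembles a monocyte and dampens T-cell responses. The set was 10 genes taken by symbol from the 54532 genes of the deposited FPKM table (fragments scaled to gene length and library size): the proteinase genes Mmp2, Mmp3, Mmp9, Mmp12, Mmp13, Mmp14 and Mmp19, and the inhibitor genes Timp1, Timp2 and Timp3. All 10 were also among the 9877 genes of the deposited count table. Poly-A RNA was sequenced in 9 libraries from mice bearing tumours of MC38, a colon carcinoma line, with 3 from LILRB4+/+ SCG2-/- mice (SCG2 knockout), 3 from LILRB4+/+ mice (LILRB4) and 3 from WT mice. The SCG2 knockout mice therefore carried LILRB4+/+ as well, so SCG2 knockout against LILRB4 differs by the labelled SCG2 genotype, LILRB4 against WT by the LILRB4 genotype, and SCG2 knockout against WT by both. The nature of the LILRB4 allele, the sorting gate and the mouse behind each library are not stated in the labels. A p-value here reflects the spread among these samples alone, which may be technical.

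MMPs are zinc-dependent enzymes that cut collagens, elastin, proteoglycans and many secreted or membrane proteins. Most are made as inactive precursors whose propeptide must be removed, by furin-like convertases inside the cell or by plasmin and other MMPs outside it, and TIMPs bind the active site of the mature enzymes. In tumours they come from macrophages, monocytes, neutrophils and fibroblasts, and they are known for remodelling matrix around vessels and invading cells.

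The deposited counts summed to 14501163 to 27219202 per library. Scg2, the gene removed in the knockout, had no read in 7 of the 9 libraries and 1 read in LILRB4 replicate 1 and in WT replicate 1, so it could not check the knockout labels. All 10 monocyte markers averaged above 1 FPKM. They summed to 358 to 609 FPKM in SCG2 knockout, 579 to 972 in LILRB4 and 500 to 1048 in WT libraries, and macrophage markers to 428 to 781, 630 to 1211 and 663 to 1073 FPKM in SCG2 knockout, LILRB4 and WT libraries. The T-cell and NK-cell markers summed to 276 to 492 FPKM in SCG2 knockout, 76.5 to 483 in LILRB4 and 83.3 to 298 in WT libraries. Neutrophil markers summed to 36.4 to 49.5 FPKM in SCG2 knockout, 84.5 to 230 in LILRB4 and 39.9 to 77.9 in WT libraries, with Ly6g, Cxcr2, Camp and Ltf below 1 FPKM on average. Retnlg was the largest term, at 45.9 FPKM on average and up to 154. Csf3r averaged 11.9 FPKM, and S100a8 and S100a9 averaged 3.81 and 4.53 FPKM. Fibroblast markers, of which Fap alone averaged below 1 FPKM, summed to 326 to 421, 210 to 326 and 246 to 377 FPKM in SCG2 knockout, LILRB4 and WT libraries. Endothelial markers summed to at most 18.5 FPKM, with 6 of 8 below 1 FPKM on average, and 6 carcinoma markers summed to 19.0 to 34.1 FPKM in SCG2 knockout, 20.1 to 44.6 in LILRB4 and 21.8 to 27.3 in WT libraries. Of these 6, Cdh1 averaged 24.2 FPKM and Epcam 1.20 FPKM, and the 4 keratin genes were below 1 FPKM. In bulk RNA, fewer cells of a type and less RNA per cell cannot be told apart. Relations of the members to fibroblast, macrophage, neutrophil and endothelial marker levels are given below, and no fit took marker levels into account.

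Promoter windows of Mmp13, Mmp12 and Mmp3 are printed because these genes lie close together on chromosome 9 and because Mmp12 and Mmp13 were the members higher in every LILRB4 library than in every WT library beside Mmp14. The windows run from 250 bases before to 50 after the transcript start, on the plus strand of GRCm38.p6, from RefSeq. Capitals mark a pair of motifs, each searched on both strands. One is the AP-1 motif, spelled TGANTCA. The other is the core promoter motif that binds the general transcription machinery, spelled TATAAA.
Mmp13, chr9:7272264-7272563: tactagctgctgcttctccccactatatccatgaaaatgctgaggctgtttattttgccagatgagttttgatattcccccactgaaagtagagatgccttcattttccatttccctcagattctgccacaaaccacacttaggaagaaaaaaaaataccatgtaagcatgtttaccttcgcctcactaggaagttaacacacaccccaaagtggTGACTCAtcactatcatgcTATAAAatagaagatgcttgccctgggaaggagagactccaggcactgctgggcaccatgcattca
Mmp12, chr9:7344147-7344446: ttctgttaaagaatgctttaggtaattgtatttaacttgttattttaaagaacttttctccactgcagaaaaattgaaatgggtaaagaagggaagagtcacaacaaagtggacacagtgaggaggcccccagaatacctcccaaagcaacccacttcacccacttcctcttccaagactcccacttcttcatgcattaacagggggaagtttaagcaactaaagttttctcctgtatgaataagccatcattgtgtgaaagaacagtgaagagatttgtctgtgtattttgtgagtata
Mmp12, chr9:7347124-7347423: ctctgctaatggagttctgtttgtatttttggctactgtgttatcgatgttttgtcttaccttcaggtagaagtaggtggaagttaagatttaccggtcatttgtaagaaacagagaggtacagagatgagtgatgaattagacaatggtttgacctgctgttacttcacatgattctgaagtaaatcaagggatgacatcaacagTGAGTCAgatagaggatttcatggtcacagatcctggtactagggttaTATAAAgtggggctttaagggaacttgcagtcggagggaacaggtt
Mmp3, chr9:7445572-7445871: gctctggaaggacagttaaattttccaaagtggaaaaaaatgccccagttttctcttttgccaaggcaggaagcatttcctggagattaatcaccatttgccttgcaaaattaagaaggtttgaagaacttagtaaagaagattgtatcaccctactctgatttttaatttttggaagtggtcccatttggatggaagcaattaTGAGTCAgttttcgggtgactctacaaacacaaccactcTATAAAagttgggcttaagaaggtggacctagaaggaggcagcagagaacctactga

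TGANTCA began 35 bases before the start in Mmp13, 44 before it in the downstream Mmp12 window and 46 before it in Mmp3. TATAAA began 16 bases before the start in Mmp13, 7 before it in Mmp3 and 4 after it in the downstream Mmp12 window, and the upstream Mmp12 window held neither. TGANTCA was present in 7.81% and TATAAA in 13.6% of 32851 mouse promoter windows of this length. The windows of Mmp14, Timp1, Timp2 and Timp3 held neither motif. They held GGGCGG, the GC box, which was present in 35.7% of all windows and in none of the chromosome 9 windows shown. In all, 7 of the 10 genes had a window in the RefSeq table, and Mmp2, Mmp9 and Mmp19 had none there. These matches describe letters and not bound sites.

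The secreted gelatinase gene Mmp2 led the family, and Mmp3 stood lowest. Averaged over the 9 libraries, the order of levels per length was Mmp2, Timp2, Timp1, Mmp14, Mmp19, Mmp12, Mmp13, Timp3, Mmp9 and Mmp3. Mmp2 was exceeded in mean FPKM by 243 genes of the table, Mmp9 by 7778 and Mmp3 by 9714. In WT libraries Mmp19 at 37.9 ± 9.93 FPKM and Mmp12 at 29.0 ± 3.06 FPKM were neighbours whose ranges overlapped (SD, n = 3 each). In LILRB4 libraries Mmp12 and Mmp13 were neighbours with overlapping ranges, at 42.5 ± 8.53 and 45.5 ± 3.40 FPKM (SD, n = 3 each).

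**Figure D1:**
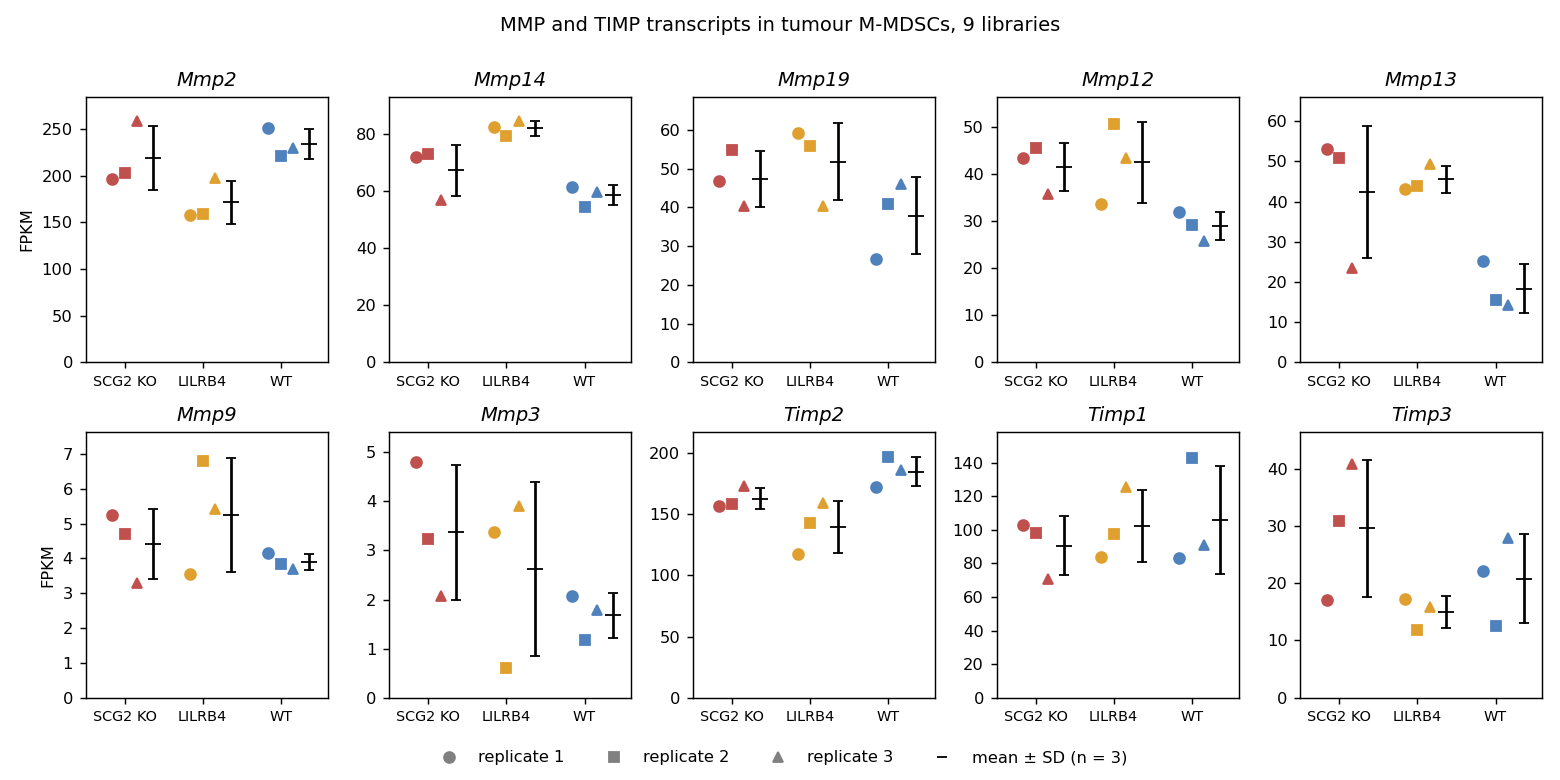
Level of each of the 10 genes in FPKM (linear axes from 0, own scale per gene) in SCG2 knockout, LILRB4 and WT libraries, with a symbol per replicate and bars for mean ± SD (n = 3). Mmp13 stands at 43.2 to 49.4 FPKM in LILRB4 and 14.3 to 25.3 FPKM in WT libraries, while SCG2 knockout replicate 3, at 23.6 FPKM, lies among the WT values.

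LILRB4 against WT asked what the LILRB4 genotype changes. On FPKM, 3 members were higher in every LILRB4 library than in every WT library, Mmp12, Mmp13 and Mmp14, where 11.2% of the 12910 genes with 1 FPKM or more in 3 libraries were. The reverse held for 2 members, Mmp2 and Timp2, where 12.9% of genes were lower. With edgeR's quasi-likelihood test on the deposited counts, 1 of the 10 members was called higher at an adjusted p under 0.05, Mmp12, where 1.73% of 9877 genes were, and 0 were called lower, where 0.516% of genes were. With reads recovered from the FPKM values 0 members were called in either direction, where 0.813% of genes were called higher and 0.0572% lower, and with limma on FPKM 0 were called, where 0.705% were called higher and 0.0852% lower. DESeq2 on deposited counts called 4 higher, Mmp9, Mmp12, Mmp13 and Mmp14, where it called 6.2% of 9876 genes, and 0 lower, where it called 3.16%. Before adjustment, a p under 0.05 was reached by 4 members upward and 2 downward with edgeR on deposited counts. Over all 9877 genes, 1113 reached it upward and 1117 downward. Either other fit gave 3 members upward and 2 downward. There the genes reaching it were 1616 and 1343 of 15743 with recovered reads, and 1313 and 1169 of 12910 with limma.

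Mmp13 encodes collagenase 3, which cuts fibrillar collagen (ENSMUSG00000050578, chr9:7272514-7283331, GRCm38, plus strand). It measured 53.1, 50.8 and 23.6 FPKM in SCG2 knockout replicates 1 to 3, 43.2, 44.0 and 49.4 FPKM in LILRB4, and 25.3, 15.4 and 14.3 FPKM in WT. All LILRB4 libraries stood above all WT libraries, whereas the SCG2 knockout libraries were split, with 1 inside the WT range. The log2 fold change in LILRB4 against WT was 1.28 (SE 0.31, edgeR adjusted p = 0.0566) from deposited counts and 1.30 (edgeR adjusted p = 0.0764) from recovered reads, neither past the threshold. Leaving out a library at a time gave log2 values of 1.12 to 1.61, and the gene passed without LILRB4 replicate 2 (edgeR adjusted p = 0.0453) and without SCG2 knockout replicate 3 (edgeR adjusted p = 0.0237). Those fits called 541 and 162 of all 9877 genes higher. DESeq2 called it, at an adjusted p of 0.00115.

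Mmp12 encodes macrophage elastase, the elastin-cutting enzyme of macrophages (ENSMUSG00000049723, chr9:7344381-7369499, plus strand). Its FPKM values were 43.4, 45.5 and 35.8 in SCG2 knockout, 33.6, 50.6 and 43.3 in LILRB4, and 32.0, 29.1 and 25.9 in WT. Every library carrying LILRB4+/+ exceeded every WT library, although LILRB4 replicate 1 did so narrowly. In the count table the gene had 5748, 5635 and 4254 reads in SCG2 knockout, 7993, 8690 and 8302 in LILRB4, and 4966, 5068 and 3853 in WT. The FPKM table gave back 3993 reads in LILRB4 replicate 1, exactly 4000 fewer, and the same reads as the count table in the other 8 libraries.

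The tables therefore gave different answers on Mmp12. With deposited counts the log2 fold change in LILRB4 against WT was 0.86 (SE 0.19, edgeR adjusted p = 0.0428), and with recovered reads it was 0.54 (SE 0.19, edgeR adjusted p = 0.160). Without LILRB4 replicate 1, where the tables hold the same reads, it was 0.69 (edgeR adjusted p = 0.154). Among the 9 fits that each left out a library the call held in 2, without LILRB4 replicate 2 (edgeR adjusted p = 0.0354) and without SCG2 knockout replicate 3 (edgeR adjusted p = 0.0487). It was lost without each of the other 7 (edgeR adjusted p up to 0.166). Calls over all 9877 genes fell too, from 171 higher to 0 without WT replicates 2 or 3 and 27 without WT replicate 1. They were 8 and 14 without LILRB4 replicates 1 and 3, and 158 and 57 without SCG2 knockout replicates 1 and 2. Such losses are therefore not particular to Mmp12. Because the tables gave different answers, no change of Mmp12 is stated.

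Mmp9 encodes gelatinase B, stored in neutrophil granules and also made by macrophages (ENSMUSG00000017737, chr2:164940780-164955850, plus strand). It had 339, 285 and 191 reads in SCG2 knockout, 506, 571 and 507 in LILRB4, and 316, 328 and 270 in WT in the count table. The FPKM table gave back 206 reads in LILRB4 replicate 1, which is 300 fewer, and the same reads elsewhere. In FPKM it stood at 5.24, 4.70 and 3.29 in SCG2 knockout, 3.54, 6.80 and 5.41 in LILRB4, and 4.16, 3.85 and 3.71 in WT.

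Scaled to library size as CPM, Mmp9 in LILRB4 replicate 1 was 29.5 by the count table and 11.8 by the recovered reads. With the count table all LILRB4 libraries had more Mmp9 reads than any WT library, and on FPKM LILRB4 replicate 1 was below all WT libraries. The log2 fold change in LILRB4 against WT was 0.80 (SE 0.21, edgeR adjusted p = 0.0709) from deposited counts and 0.42 (SE 0.25, edgeR adjusted p = 0.377) from recovered reads. In SCG2 knockout against LILRB4 it was -0.60 (SE 0.21, edgeR adjusted p = 0.364) from deposited counts and -0.23 (SE 0.25, edgeR adjusted p = 0.841) from recovered reads. Neutrophil markers, summed over 11 genes with Retnlg the largest term, had their highest level in LILRB4 libraries, as given above. On FPKM over the 9 libraries, Mmp9 had r = 0.68 with their sum (exact permutation p = 0.0427, adjusted p = 0.142) and rho = 0.62 (exact p = 0.0857). There r was -0.12 without LILRB4 replicates 2 and 3, the libraries farthest from the median. All 3 values rest on the lower of the 2 Mmp9 values of LILRB4 replicate 1. The relation was not computed with the count table's value.

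**Figure D2:**
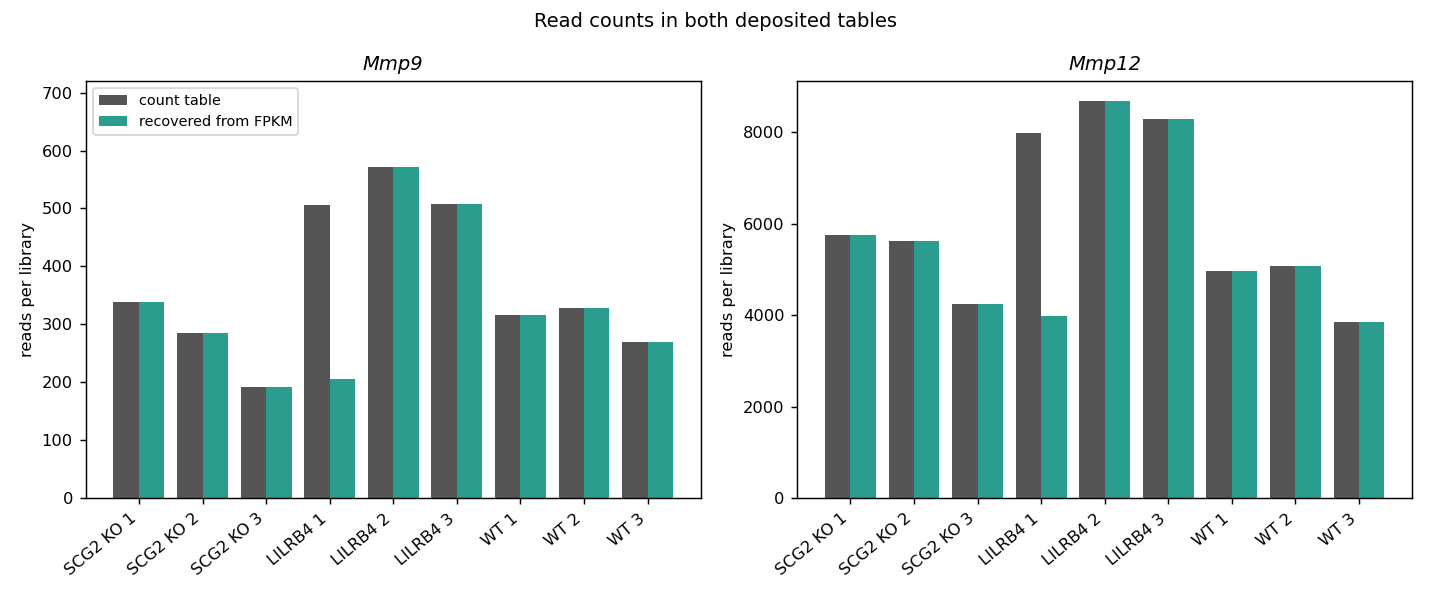
Reads per library (linear axes from 0) of Mmp9 and Mmp12 in the count table and as recovered from the FPKM table, in SCG2 knockout, LILRB4 and WT replicates 1 to 3. The paired bars are equal except in LILRB4 replicate 1, with 506 against 206 reads for Mmp9 and 7993 against 3993 reads for Mmp12.

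The tables differed at 56 of 88893 values compared, in 47 genes, and 41 of those values lay in LILRB4 replicate 1. Of the 10 members, Mmp9 and Mmp12 were the 2 affected, and the files do not say which value was intended.

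Mmp14 encodes MT1-MMP, a membrane-anchored collagenase that activates pro-MMP2 on the cell surface (ENSMUSG00000000957, chr14:54431612-54445364, plus strand). It measured 71.7, 73.1 and 57.0 FPKM in SCG2 knockout, 82.4, 79.2 and 84.3 FPKM in LILRB4, and 61.2, 54.5 and 59.7 FPKM in WT. The LILRB4 libraries stood above those of both other groups, and SCG2 knockout replicate 3 lay within the WT range. The log2 fold change was -0.23 (SE 0.15, edgeR adjusted p = 0.599) in SCG2 knockout against LILRB4, and 0.46 (SE 0.15, edgeR adjusted p = 0.116) in LILRB4 against WT. Mmp14 was the 1 member lower in every SCG2 knockout library than in every LILRB4 library on FPKM, where 9.61% of genes were, and no member was higher in every one, where 6.46% of genes were.

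Mmp2 encodes gelatinase A, which cuts denatured collagen and type IV collagen and is made abundantly by fibroblasts (ENSMUSG00000031740, chr8:92827291-92853420, plus strand). Its levels were 196, 202 and 258 FPKM in SCG2 knockout, 158, 158 and 198 FPKM in LILRB4, and 251, 221 and 230 FPKM in WT. All LILRB4 libraries were below all WT libraries, and LILRB4 replicate 3 overlapped the SCG2 knockout range. The log2 fold change was 0.41 (SE 0.18, edgeR adjusted p = 0.442) in SCG2 knockout against LILRB4 and -0.48 (SE 0.18, edgeR adjusted p = 0.160) in LILRB4 against WT.

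Mmp19 encodes an enzyme that cuts basement membrane components (ENSMUSG00000025355, chr10:128790910-128800824, plus strand). It ranged from 40.2 to 54.8 FPKM in SCG2 knockout, 40.4 to 59.1 FPKM in LILRB4 and 26.8 to 45.9 FPKM in WT libraries, so all groups overlapped. Mmp3 encodes stromelysin 1, which also activates other pro-MMPs (ENSMUSG00000043613, chr9:7445822-7455975, plus strand). It measured 4.80, 3.24 and 2.06 FPKM in SCG2 knockout, 3.38, 0.608 and 3.90 FPKM in LILRB4, and 2.07, 1.18 and 1.78 FPKM in WT, and LILRB4 replicate 2 was the lowest library of the 9. Its log2 fold change in SCG2 knockout against LILRB4 was 0.40 (SE 0.57, edgeR adjusted p = 0.846), the least precise of the 10.

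**Figure D3:**
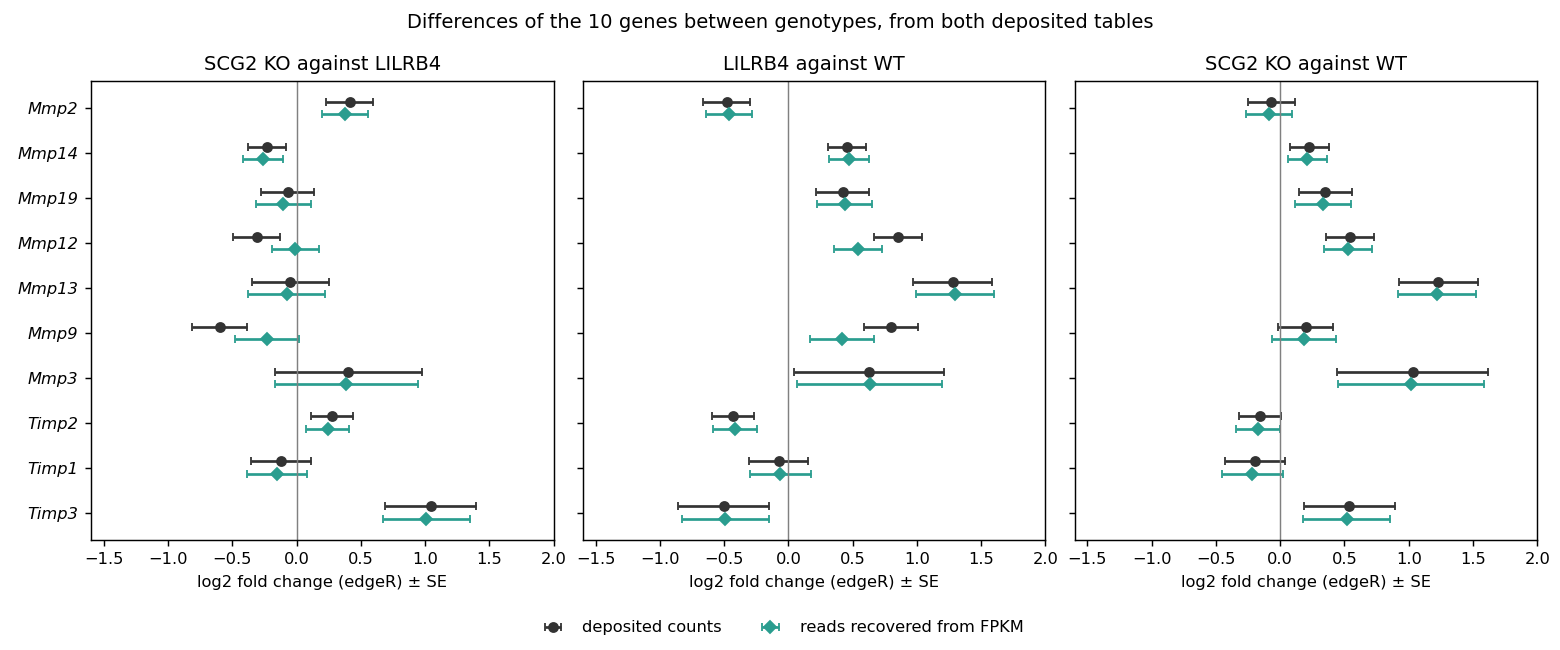
Log2 fold changes ± SE from edgeR for the 10 genes in SCG2 knockout against LILRB4, LILRB4 against WT and SCG2 knockout against WT, from deposited counts and from reads recovered from FPKM. The estimates of both tables lie close together except for Mmp12 (0.86 and 0.54 in LILRB4 against WT) and Mmp9 (0.80 and 0.42).

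Among the inhibitors, Timp2 was the most abundant. TIMP2 inhibits MMPs and, bound to MT1-MMP, also helps activate pro-MMP2 (ENSMUSG00000017466, chr11:118301069-118355740, minus strand). Timp2 measured 157, 158 and 173 FPKM in SCG2 knockout, 117, 143 and 159 FPKM in LILRB4, and 172, 196 and 186 FPKM in WT. The LILRB4 libraries were all below the WT libraries, the log2 fold change being -0.43 (SE 0.16, edgeR adjusted p = 0.157), and the SCG2 knockout libraries overlapped both other groups.

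Timp1, whose product is a soluble inhibitor induced by cytokines (ENSMUSG00000001131, chrX:20870166-20874735, plus strand), averaged 90.5 ± 17.5 FPKM in SCG2 knockout, 102 ± 21.3 in LILRB4 and 106 ± 32.3 in WT libraries (SD, n = 3 each). WT replicate 2, at 143 FPKM, was the highest library, and the groups overlapped. The log2 fold change was -0.12 (SE 0.23, edgeR adjusted p = 0.892) in SCG2 knockout against LILRB4 and -0.07 (SE 0.23, edgeR adjusted p = 0.867) in LILRB4 against WT.

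Timp3, whose product is held in the matrix and also inhibits ADAM17 (ENSMUSG00000020044, chr10:86300372-86349506, plus strand), measured 17.1, 30.8 and 40.8 FPKM in SCG2 knockout, 17.2, 11.8 and 15.8 FPKM in LILRB4, and 22.1, 12.5 and 27.8 FPKM in WT. SCG2 knockout replicates 2 and 3 stood above all other libraries, while replicate 1 lay just below LILRB4 replicate 1. Its log2 fold change in SCG2 knockout against LILRB4 was 1.04 (SE 0.35, edgeR adjusted p = 0.359), the largest of the 10 members in that comparison in size and not past the threshold. Timp3 ran opposite to the summed macrophage markers over the libraries (r = -0.86), as detailed with the marker lists.

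Timp1 and Timp3 lie on the opposite strand from Syn1 and Syn3, Mmp19 from Tmem198b and Gm47093, and Mmp12 from Mmp1b, while Timp2 shares its strand with Cep295nl. These neighbours averaged at most 4.43 FPKM, in Tmem198b. The strand setting of the counting is not given in the sources used here, so reads of such pairs may not be told apart.

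SCG2 knockout against LILRB4 called 0 of the 10 members in either direction with edgeR, where 0.0% of genes were called, and limma on FPKM also called 0. DESeq2 called 0 of the 8 members to which it gave an adjusted p, where it called 0.162% of 7387 genes higher and 2.37% lower. It gave none to Mmp3 and Mmp9. At an unadjusted p under 0.05 edgeR gave 2 higher, Mmp2 and Timp3, and 1 lower, Mmp9, on deposited counts, and limma gave 1 higher. Over all genes, edgeR gave 482 higher and 610 lower of 9877, and limma gave 369 higher of 12910. The median log2 fold change of the 10 was -0.06, beside 0.03 over all genes, with 4 positive and 6 negative. On simulated counts the same fit found 10% of genes altered 1.5-fold, 64% at 2-fold and 92% at 3-fold. That simulation altered 50 genes at each of 1.5-, 2-, 3- and 4-fold and held no other difference between groups. Recovery depends on how many genes change, so these rates may not hold for the real libraries. They do not exclude changes of such size in the members.

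SCG2 knockout against WT also called 0 members with edgeR, where 0.0% of genes were called, and 0 with limma, while DESeq2 called 1 higher, Mmp13, where it called 0.699% of genes, and 0 lower, where it called 0.233%. At an unadjusted p under 0.05 edgeR gave 2 higher, Mmp12 and Mmp13, and 0 lower. Of all 9877 genes it gave 837 higher and 603 lower. Mmp12 was higher in every SCG2 knockout library than in every WT library on FPKM, where 11.3% of genes were, while no member was lower in every one, where 11.3% of genes were. The log2 fold change of Mmp12 was 0.54 (SE 0.19, edgeR adjusted p = 0.317), and that of Mmp13 was 1.23 (SE 0.31, edgeR adjusted p = 0.317). The median over the members was 0.29, beside 0.00 over all genes, and in LILRB4 against WT it was 0.44, beside -0.02. LILRB4 against WT and SCG2 knockout against WT share the WT libraries.

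The summed level of the 7 MMP genes reached 421, 434 and 420 FPKM in SCG2 knockout, 383, 395 and 424 in LILRB4, and 403, 366 and 381 in WT libraries. SCG2 knockout libraries were all above WT libraries, and LILRB4 libraries overlapped both. Mmp2 made up 46.5, 46.6 and 61.4% of that sum in SCG2 knockout, 41.2, 40.1 and 46.5% in LILRB4, and 62.4, 60.4 and 60.3% in WT libraries. The LILRB4 and WT shares did not overlap, and SCG2 knockout replicate 3 stood with WT. Without Mmp2 the sum was 162 to 232 FPKM in SCG2 knockout, 225 to 237 in LILRB4 and 145 to 152 in WT libraries. In LILRB4 replicate 1 these values rest on 206 Mmp9 and 3993 Mmp12 reads, where the count table has 506 and 7993. With the count table's reads its sums would be higher and its Mmp2 share lower. With 3 libraries a group, an exact two-sided permutation test on such a sum cannot give a p below 0.1, so these sums are descriptions.

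The ratio of Mmp14 to Mmp2 was 0.366, 0.361 and 0.221 in SCG2 knockout, 0.523, 0.500 and 0.427 in LILRB4, and 0.244, 0.247 and 0.260 in WT libraries. LILRB4 libraries were above all others, and SCG2 knockout replicate 3 was the lowest. The TIMP sum was 277 to 287 FPKM in SCG2 knockout, 218 to 300 in LILRB4 and 277 to 352 in WT libraries. The ratio of the MMP sum to the TIMP sum was 1.52, 1.51 and 1.48 in SCG2 knockout, 1.76, 1.57 and 1.41 in LILRB4, and 1.45, 1.04 and 1.25 in WT libraries, and LILRB4 replicate 3 lay within the WT range. The 1.76 of LILRB4 replicate 1 would be higher with the count table's Mmp9 and Mmp12 reads.

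**Figure D4:**
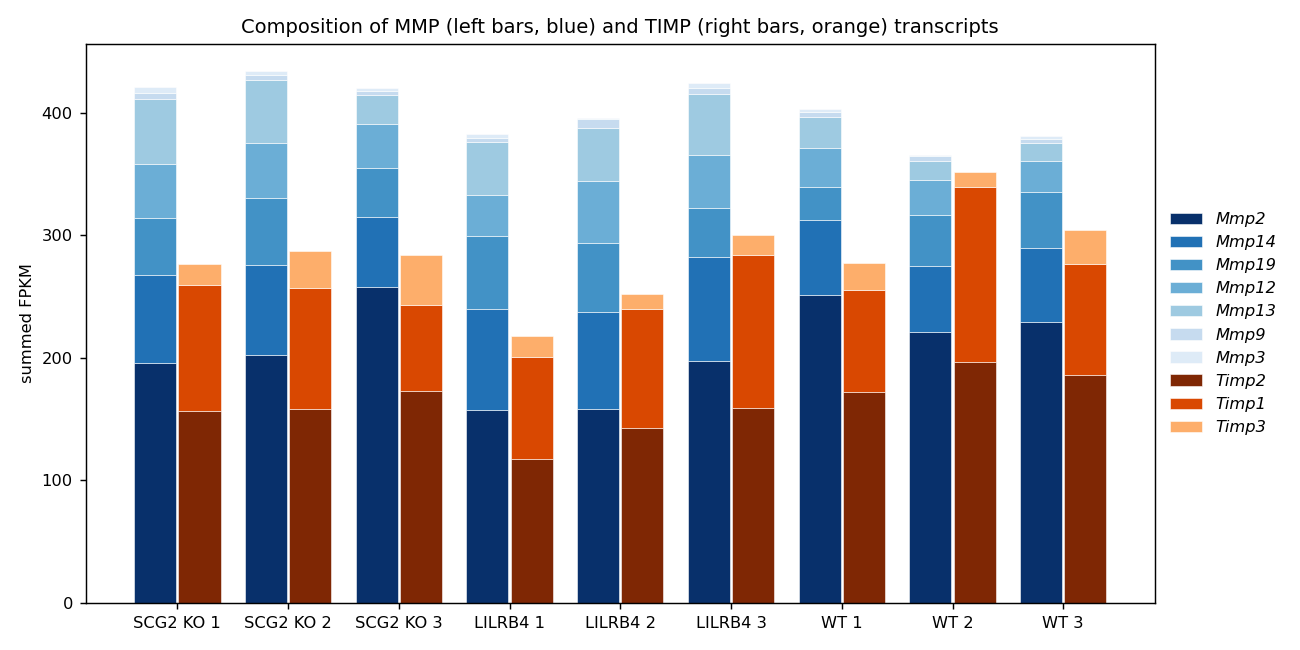
Summed FPKM of the 7 MMP genes (left bar of each pair, blues) and the 3 TIMP genes (right bar, oranges) in each of the 9 libraries, on a linear axis from 0. Mmp2, the darkest blue, takes 40.1 to 46.5% of the MMP bar in LILRB4 libraries and 60.3 to 62.4% in WT libraries. The MMP bar of LILRB4 replicate 1 uses the FPKM values of Mmp9 and Mmp12, and the count table has more reads of both there.

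Fibroblasts are a known source of several MMPs, so each member was set beside the summed fibroblast markers over the 9 libraries on log2(FPKM + 1). Of the 10 relations, 0 had a Pearson p under 0.05 after Benjamini-Hochberg adjustment in the exact two-sided permutation test. Timp3 had r = 0.71 (exact p = 0.0320, adjusted p = 0.198) and rho = 0.60 (exact p = 0.0968), and Mmp3 had r = 0.69 (exact p = 0.0395, adjusted p = 0.198) and rho = 0.57 (exact p = 0.121). Without LILRB4 replicate 2 and WT replicate 2, the 2 libraries farthest from the median marker level, r was 0.35 for Timp3 and -0.10 for Mmp3, so both relations rest on those libraries. Mmp2 had r = 0.56 (exact p = 0.116, adjusted p = 0.352) with them and 0.56 without them. Within genotypes, as deviations from group means, r was 0.54 for Timp3, 0.67 for Mmp3 and 0.62 for Mmp2. LILRB4 replicate 2 and WT replicate 2 also had the lowest T-cell and NK-cell marker sums, at 76.5 and 83.3 FPKM. Thy1, 1 of the 12 fibroblast markers, itself ranged from 11.4 to 66.7 FPKM. Relations of the members to T-cell and NK-cell markers were not tested.

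The same relations were computed for 3 further marker lists, with p-values adjusted over the 10 members within each list. With macrophage markers 1 member passed, Timp3, at r = -0.86 (exact permutation p = 0.00328, adjusted p = 0.0328), while its rho of -0.80 did not pass (exact p = 0.0138, adjusted p = 0.138). Without SCG2 knockout replicate 3 and LILRB4 replicate 2, the farthest from the median, r was -0.68, and within genotypes it was -0.85. With neutrophil markers, whose sum had Retnlg as its largest term, no Pearson r passed. By rho 2 members did, Mmp2 and Timp3, at -0.85 each (exact permutation p = 0.00607, adjusted p = 0.0304). There r was -0.77 for Mmp2 (exact p = 0.0150, adjusted p = 0.0748) and -0.80 for Timp3 (exact p = 0.00697, adjusted p = 0.0697), and -0.41 and -0.75 within genotypes. Without LILRB4 replicates 2 and 3, r was -0.72 for Mmp2 and -0.82 for Timp3. With endothelial markers 0 members passed by r or by rho, the lowest adjusted p being 0.133.

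**Figure D5:**
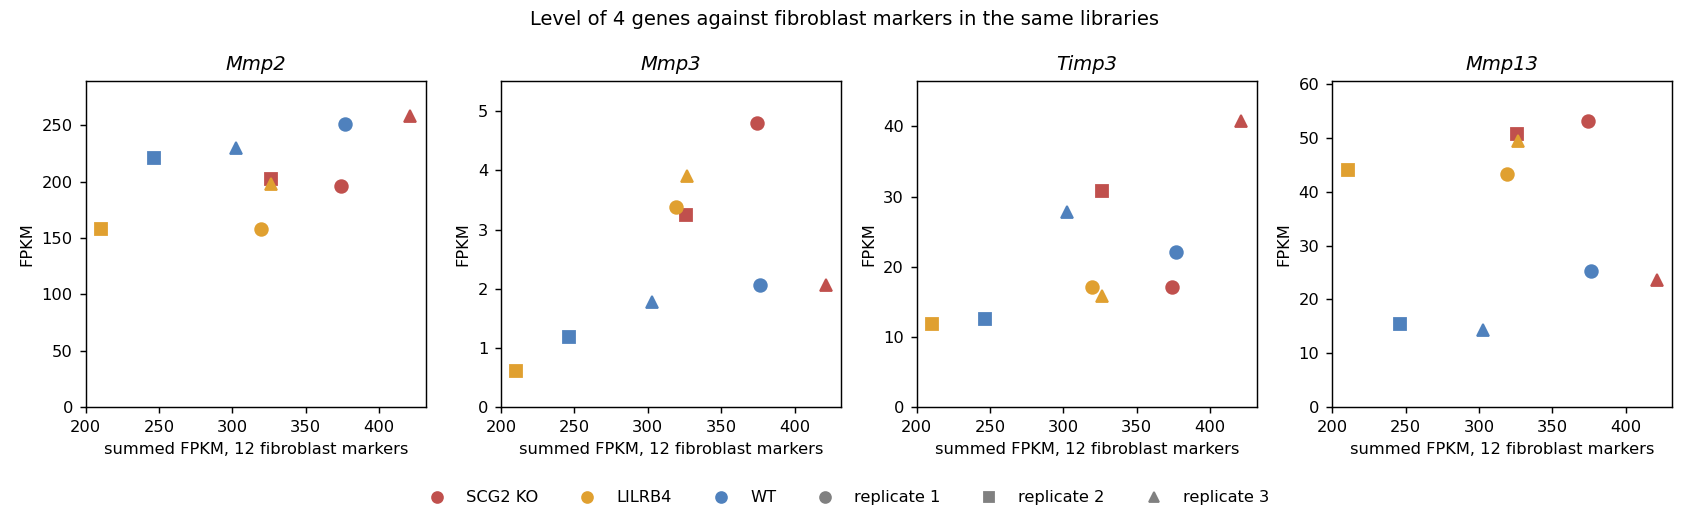
FPKM of Mmp2, Mmp3, Timp3 and Mmp13 (linear y axes from 0) against the summed FPKM of 12 fibroblast markers (x axes from 200), a symbol per library, coloured by genotype. The lowest marker sum, in LILRB4 replicate 2, goes with the lowest Mmp3 (0.608 FPKM) and Timp3 (11.8 FPKM), and Mmp13 has r = 0.08 with the markers.

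Genes known to act with MMPs were described from lists. Of 17 activators, partners and surface anchors, 13 were tested in the count table, and 1 was called higher and 0 lower in LILRB4 against WT. Over all 9877 genes, 1.73% were called higher and 0.516% lower. The called gene was Furin, the convertase that removes the propeptide of MT1-MMP. It measured 78.6, 87.6 and 72.7 FPKM in SCG2 knockout, 138, 110 and 109 FPKM in LILRB4, and 65.3, 52.7 and 60.6 FPKM in WT. No Furin value overlapped between the genotypes. Of 12910 genes, 11.2% were higher in every LILRB4 library than in every WT library. In SCG2 knockout 9.61% were lower in every library than in LILRB4, and 11.3% higher than in WT. Furin rose in LILRB4 against WT by 0.97 on the log2 scale (SE 0.17, edgeR adjusted p = 0.0277). The recovered reads gave 0.99 (edgeR adjusted p = 0.0307). Its call held in 3 of the 9 fits that left out a library. It was lost without LILRB4 replicates 1 or 3, SCG2 knockout replicate 2 or any WT replicate, with adjusted p up to 0.131. The fits that lost it called 0 to 57 of all 9877 genes higher, against 171 with all libraries. In SCG2 knockout against LILRB4 the Furin difference was -0.52 on the log2 scale (SE 0.17, edgeR adjusted p = 0.335).

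Of 14 AP-1 and cytokine genes that act on MMP genes, 14 were tested. In LILRB4 against WT 2 were called higher, Il1a and Nfkb1, and 0 lower, where 1.73% and 0.516% of 9877 genes were. Il1a, the cytokine interleukin 1 alpha, measured 250, 392 and 146 FPKM in SCG2 knockout, 522, 475 and 717 FPKM in LILRB4, and 154, 164 and 104 FPKM in WT. It rose by 1.99 (edgeR adjusted p = 0.0269) from deposited counts and by 2.01 (edgeR adjusted p = 0.0280) from recovered reads. The Il1a call held in 4 of the 9 fits that left out a library and was lost without LILRB4 replicates 1 or 3 or any WT replicate (adjusted p up to 0.129). Nfkb1 differed by 1.17 on the log2 scale (edgeR adjusted p = 0.0434), and 1.18 with recovered reads (edgeR adjusted p = 0.0516). The Nfkb1 call held in 2 of those 9 fits, without LILRB4 replicate 2 and without SCG2 knockout replicate 3, and was lost in the other 7 (adjusted p up to 0.161). With all libraries 171 of 9877 genes were called higher. The fits that lost the Il1a call gave 0 to 27, and those that lost the Nfkb1 call 0 to 158. The median of this list was 0.40 in LILRB4 against WT, beside -0.02 over all genes. Its 2 most abundant genes, the AP-1 genes Jun and Junb, were not called in that comparison. Jun had a log2 fold change of -0.24 (edgeR adjusted p = 0.683) and Junb of 0.37 (edgeR adjusted p = 0.266).

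Of 18 matrix and secreted substrates, 18 were tested. In LILRB4 against WT 2 were called higher and 0 lower, where 1.73% and 0.516% of 9877 genes were. The median log2 fold change of the 18 was -0.096, beside -0.02 over all genes, and 8 of them were positive. Tnf, whose product is shed from the membrane by metalloproteinases, measured 174 ± 59.4 FPKM in SCG2 knockout, 326 ± 69.1 in LILRB4 and 121 ± 24.8 in WT libraries (SD, n = 3 each). Tnf passed edgeR's test in both tables, at log2 fold changes of 1.55 (edgeR adjusted p = 0.0228) and 1.41 (edgeR adjusted p = 0.0398), and limma gave an adjusted p of 0.0616. The Tnf call on deposited counts was lost without LILRB4 replicates 1 or 3 or any WT replicate (adjusted p up to 0.124). The fits that lost it called 0 to 27 of all 9877 genes higher, against 171 with all libraries. Tgfb1 had 0.81 (edgeR adjusted p = 0.0349) from deposited counts and 0.57 (edgeR adjusted p = 0.146) from recovered reads, so it was called in 1 table alone. That call was lost without LILRB4 replicates 1 or 3, SCG2 knockout replicate 2 or any WT replicate (adjusted p up to 0.148), where 0 to 57 genes were called higher. The tables differed for both genes.

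Of 18 other MMP family genes, Timp4 and Reck included, 5 averaged 1 FPKM or more, 13 were below, and Mmp7 and Mmp16 were at 0 in every library. The highest was Mmp11, which encodes stromelysin 3, at 10.2 ± 1.32 FPKM in SCG2 knockout, 9.65 ± 2.10 in LILRB4 and 13.9 ± 0.782 in WT libraries (SD, n = 3 each). Mmp28, epilysin, stood at 4.79 ± 1.03 FPKM in SCG2 knockout, 3.89 ± 0.996 in LILRB4 and 5.57 ± 1.61 in WT libraries (SD, n = 3 each). Others had higher means in LILRB4: Mmp25 at 6.29 ± 1.93 FPKM beside 3.05 ± 0.509 in WT, and Mmp8 at 6.14 ± 3.74 beside 3.31 ± 0.451 (SD, n = 3 each). In LILRB4 against WT 3 of the 5 tested had a positive log2 fold change, with a median of 0.27, beside -0.02 over all genes. With edgeR 0 of the 5 were called, where 1.73% of all genes were called higher and 0.516% lower in that comparison. Of 14 ADAM and ADAMTS genes, 9 were tested and 0 were called with edgeR, beside the same shares over all genes. Adam8 stood at 94.4 ± 7.80 FPKM in SCG2 knockout, 166 ± 43.8 in LILRB4 and 109 ± 16.2 in WT libraries, and differed by -0.75 on the log2 scale in SCG2 knockout against LILRB4 (edgeR adjusted p = 0.256). DESeq2, which called 6.2% of 9876 genes higher in LILRB4 against WT, called Adam8 higher there, while edgeR gave an adjusted p of 0.129. Adam9 stood at 37.1 ± 2.05 FPKM in SCG2 knockout, 48.0 ± 8.28 in LILRB4 and 39.1 ± 6.81 in WT libraries (SD, n = 3 each). No gene of these lists was called by edgeR in SCG2 knockout against LILRB4 or in SCG2 knockout against WT.

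Genes whose levels ran most like a member over the 9 libraries were ranked by Pearson r of log2(FPKM + 1) among 7380 other genes with a mean of 5 FPKM or more. Since the highest of so many values is large by selection, these are descriptions and carry no test. Mmp13 ran with Hcar2, Odc1 and Pmepa1 (r = 0.92 each), and Mmp14 with Dtx4 (0.96), Csf3 (0.95) and Cdk5r1 (0.95). Mmp12 ran with Flrt3 (0.87), Sgk1 (0.87) and Serpinb2 (0.86), and Mmp9 with Rcan1 (0.89), Thbd (0.88) and Spp1 (0.88), and these values rest on the FPKM table, which for both members differs from the count table in LILRB4 replicate 1. Mmp2 ran with Wnt10b (0.97), Col6a2 (0.95) and Fstl1 (0.95), the last 2 being matrix genes, and Timp2 with Hspb8, Cav1 and Orc6 (0.97 each). Timp3 ran with Snx9 (0.95), Osbpl3 (0.95) and Klf4 (0.94), Timp1 with Rps25, Spcs1 and Ndufs6 (0.96 each), Mmp19 with Kbtbd2 (0.99), Msl2 (0.92) and Pak2 (0.91), and Mmp3 with Ormdl3 (0.96), Arl4d (0.95) and Hist1h1c (0.95).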

How the data were processed

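Poly-A RNA of sorted M-MDSCs was measured in 9 strand-preserving libraries, 3 per genotype, grouped by the genotype label. The authors deposited raw read counts for 9877 genes and FPKM values for 54532 genes. HISAT2 2.0.5 and featureCounts 1.5.0-p3 are named in the submitters' processing notes. Genome build, annotation release and strand setting: not given in the sources used here. Positions in the deposited tables matched GRCm38 (GENCODE M21) at both ends for all 10 members. FPKM multiplied by gene length and a constant per library gave whole reads for 100% of values within 0.01, and these are the recovered reads. They summed to 15004944 to 28070495 per library. The deposited count table held genes with at least 100 reads in LILRB4 replicates 1 and 3. No pair of libraries in a group had more than 0.466% equal counts.

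Deposited counts were fitted with edgeR 4.0.16 (R 4.3.3): minimum count 10, TMM scaling, robust quasi-likelihood, all 9 libraries, 6 residual degrees of freedom, Benjamini-Hochberg over all genes, threshold 0.05. "Recovered reads" were fitted alike over 15743 genes. FPKM was fitted with limma 3.58.1 on log2(FPKM + 1), for genes of 1 FPKM or more in at least 3 libraries. Fits were tested on simulated data with known changes. Alternatives were DESeq2 1.42.0, other scaling, no filter, a pseudocount of 0.1, only the 2 groups compared, a replicate block, and each library left out. Named were all 10 members, genes of the lists past the threshold or else the 2 most abundant of a list, and the 3 genes most like each member. Mmp8 and Mmp25 were named beside these, as family genes higher in LILRB4 than in WT on average. The members, gene lists and tests were chosen with earlier results of these data known.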

Additional observations from a re-analysis of the deposited data

How the results depend on the processing

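The number of members called higher in LILRB4 against WT was 1 from deposited counts. It was 4 with DESeq2, which called 6.2% of all genes higher against 1.73% with edgeR. Recovered reads over all genes gave 0, where 128 of 15743 genes were called higher. Recovered reads of the count table's genes gave 0, where 178 of 9877 were. Leaving out a library gave 0 to 2, where 0 to 541 of 9877 genes were called higher. With only the 2 groups compared it was 1, where 69 of 9877 genes were. That gene was Mmp13 (edgeR adjusted p = 0.0474) in place of Mmp12 (edgeR adjusted p = 0.0796). In SCG2 knockout against WT, DESeq2 called 1, with 0.699% of all genes called higher. On FPKM in LILRB4 against WT, leaving out a library gave 0 to 1, where 0 to 223 of all genes tested were called higher. With macrophage in place of fibroblast markers, 1 member passed by r, Timp3.

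Whether replicate numbers pair the libraries was not settled: same-numbered libraries had correlations of deviations from -0.54 to 0.66. Between LILRB4 and WT these were 0.66, 0.54 and -0.45 for replicates 1 to 3, and -0.71 to 0.35 for differently numbered libraries. Such correlations, of deviations from means of 3 libraries, cannot decide it. With the replicate number as a block, 0 members were called in LILRB4 against WT, and Mmp12 had 0.84 (edgeR adjusted p = 0.0625). Furin, Il1a, Tnf, Nfkb1 and Tgfb1 also lost their calls. Over all genes, the block left 1 call higher and 0 lower in that comparison, against 171 and 51 without it.

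Some directions turned when a library was left out. In SCG2 knockout against LILRB4, log2 values ran from -0.26 to 0.20 for Mmp13 (FPKM -0.38 to 0.19), -0.075 to 0.82 for Mmp3 (FPKM -0.13 to 0.67), -0.28 to 0.035 for Timp1, and on FPKM -0.17 to 0.11 for Mmp12. Timp1 ran from -0.24 to 0.21 (FPKM -0.19 to 0.21) in LILRB4 against WT and from -0.33 to 0.061 (FPKM -0.35 to 0.034) in SCG2 knockout against WT. Mmp2 ran from -0.23 to 0.0065 in SCG2 knockout against WT. The cause was not tested. Over the members' fold changes, the other settings gave 351 of 360 values with direction and call kept and 0 reversed. That count overstates the stability. Without the filter the count fit equalled the main fit, and the recovered-read fit over all genes was entered both for counts and for FPKM. The main fits called Mmp12 alone, so a kept call was mostly a gene called in neither fit. Of simulated 1.5-fold differences 16% were recovered in LILRB4 against WT, so most were missed there, and the rate in the real libraries may differ.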
